A study of Caenorhabditis elegans with 12 samples.

Results

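The Hedgehog-related and patched-related genes of Caenorhabditis elegans were followed through osmotic and starvation arrest of young larvae. They were taken as the genes whose symbol in the deposited result sheets begins with wrt, grd, grl, hog, qua, ptr or ptc followed by a number. The symbols were joined to the count tables by sequence name. This gave 72 genes of the 44968 features counted. Of these, 46 encode ligand-like proteins (9 wrt, 14 grd, 21 grl, hog-1 and qua-1) and 26 encode receptor-like proteins (23 ptr and 3 ptc). Whole larvae of the wild-type strain N2, labelled as the first larval stage (L1), were sequenced as 12 mRNA libraries. All groups started from bleached embryos and were kept for 24 h at 25 °C. They were unfed larvae at 500 mM NaCl (unfed high-salt), larvae at 500 mM NaCl with the bacterial food OP50 (fed high-salt), unfed larvae at 100 mM NaCl (unfed low-salt) and larvae at 100 mM NaCl with OP50 (fed low-salt). Each group had 3 biological replicates, named A, B and C. In whole larvae, fewer cells of a type and less RNA per cell cannot be told apart.

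C. elegans has no canonical Hedgehog ligand and no Smoothened, but it carries a large set of secreted Hedgehog-related proteins named warthog (WRT), groundhog (GRD), ground-like (GRL), HOG and quahog (QUA). Some of them keep the self-cleaving Hog module of the Hedgehog precursor. Its Patched homologues (PTC) and the wider patched-related family (PTR) are membrane proteins with a sterol-sensing domain. Many members of both classes are known from the epidermis, the glia and the apical matrix that is rebuilt at each molt.

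The libraries held 5613260 to 76542711 reads on genes, of which 13385 to 266767 fell on the 72 genes. Unfed high-salt A stood apart by the lowest aligned share (38.6% of its reads), and fed high-salt C by the highest share of rRNA (81.8% of its reads on genes). In the other libraries at least 70.1% of reads aligned, and rRNA took at most 39.9%. Vitellogenin and adult collagen genes, a check of the larval label, summed to at most 34.3 CPM (reads scaled to 1000000 per library) in any library. The library preparation did not keep strand, so reads from overlapping genes cannot be told apart. All 72 genes passed the low-count filter, but this was largely set by the rule, which took only genes named in the result sheets. Those sheets hold 16026 genes, beside the 18028 tested here, and lack family genes with few reads such as wrt-7 and grl-31. Of the 46 ligand-like genes, 17 stayed under a mean of 5 CPM in every group, while this was so for 1 of the 26 receptor-like genes, ptr-9.

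Most members that differed between the salt levels were lower in high salt, with food and without it. In fed high-salt against fed low-salt larvae, 39 of the 72 genes passed the test (edgeR quasi-likelihood, Benjamini-Hochberg adjusted p under 0.05 over all 18028 genes tested), 9 higher and 30 lower. Values after ± beside a log2 fold change are the standard error (SE) of that fit. Over all genes tested, 38.3% passed, 16.1% higher and 22.1% lower. Among the ligand-like genes 4 rose and 21 fell, and among the receptor-like genes 5 rose and 9 fell. The median log2 fold change was -1.28 over the ligand-like genes and -0.45 over the receptor-like genes, beside 0.12 over all genes tested. With upper-quartile scaling in place of TMM the split was 13 higher and 25 lower, beside 26.3% higher and 15% lower over all genes tested, whose median was then 0.55. Without fed low-salt A, 5 members were higher, beside 8.32% of all genes tested in that fit.

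In unfed high-salt against unfed low-salt larvae, 37 of the 72 genes passed, 6 higher and 31 lower. Here 17.9% of all genes tested passed, 6.72% higher and 11.2% lower. Of the ligand-like genes 3 rose and 23 fell, and of the receptor-like genes 3 rose and 8 fell. The median log2 fold change was -1.70 for the ligand-like and -0.48 for the receptor-like genes, against 0.08 over all genes. The salt comparisons with and without food use separate libraries. In both of them 27 members fell, which is 37.5% of the 72 genes, beside 9.11% of all genes tested. In all 12 fits that each left out 1 library, 21 of the 27 were called in both comparisons, while grd-2, hog-1, wrt-6, wrt-8, ptr-2 and ptr-15 lost a call in some. Over all calls, 32 of 39 with food and 26 of 37 without food were made in every one of these fits. The 27 were 19 ligand-like and 8 receptor-like genes. One member, ptr-5, rose in both, beside 4.73% of all genes tested, and 24 passed in neither, beside 57.8%. In the authors' deposited table, 38 of the 39 calls with food and all 37 calls without food were also called, with the same sign. That table rests on the same libraries.

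**Figure D1:**
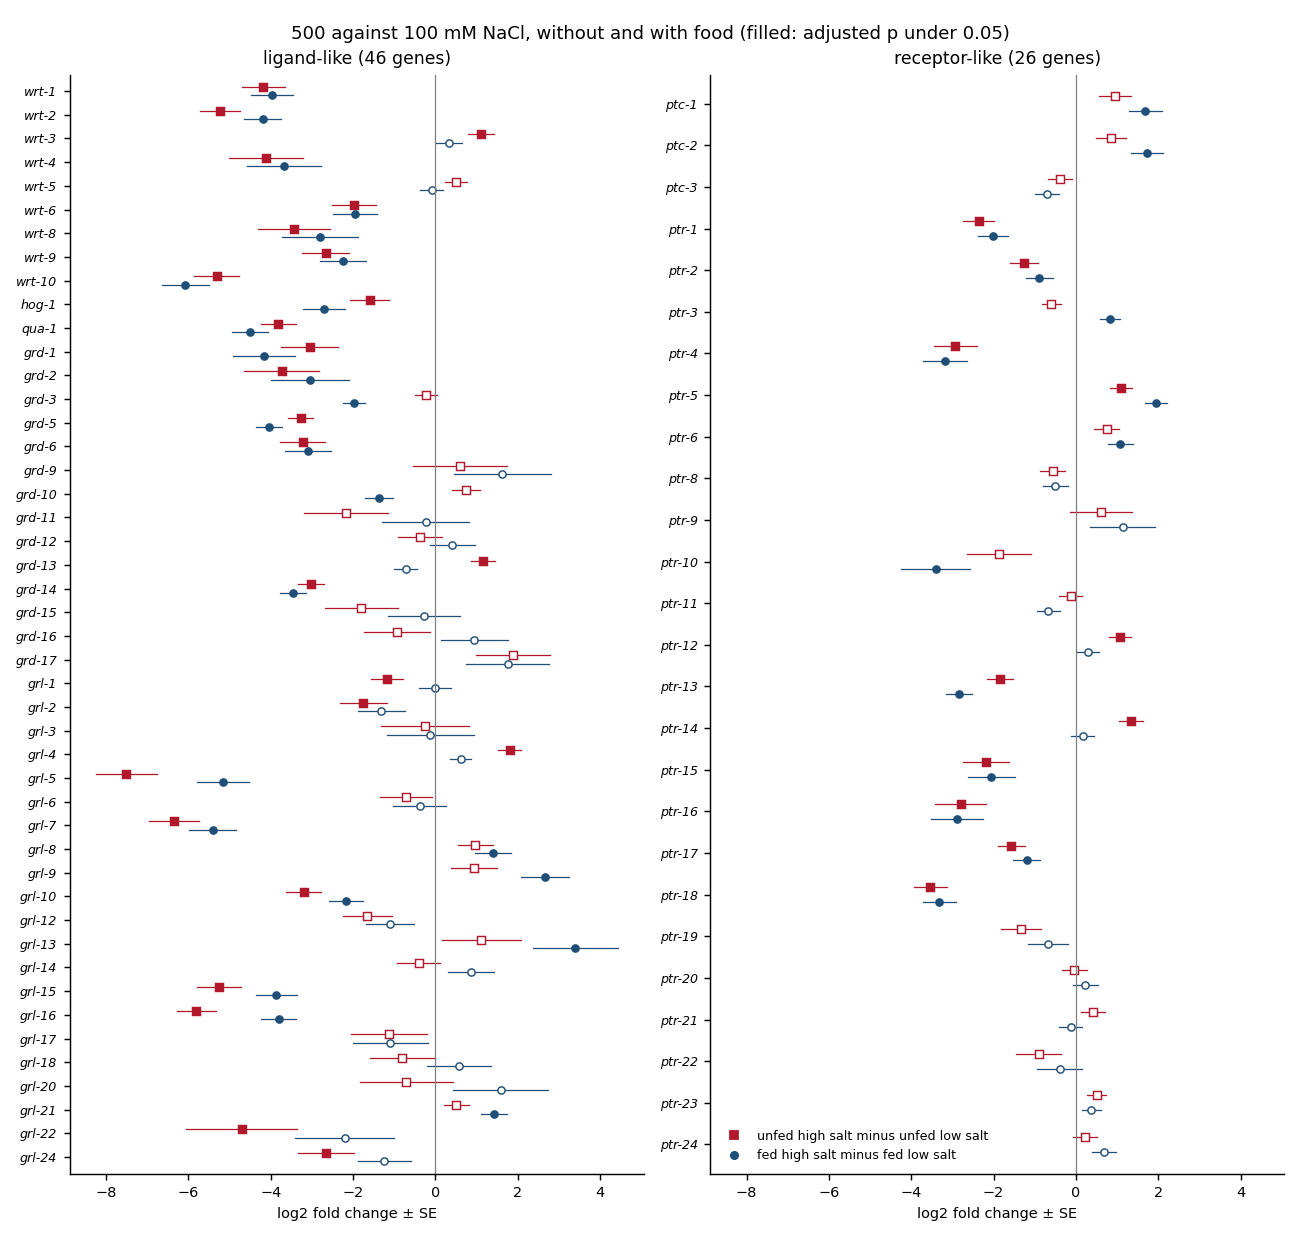
Log2 fold change with its SE (x axis) for each of the 46 ligand-like and 26 receptor-like genes (y axis), for unfed high-salt minus unfed low-salt larvae (squares) and fed high-salt minus fed low-salt larvae (circles). Filled symbols mark genes that passed the test, 37 squares and 39 circles. The low end is held by ligand-like genes, down to -7.51 for grl-5 without food and -6.08 for wrt-10 with food.

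The warthog genes were the most uniform ligand family. In fed high-salt larvae 7 of the 9 fell against fed low-salt larvae, beside 22.1% of all genes tested. The same count fell without food, beside 11.2% of all genes tested. The strongest was wrt-10. In libraries A, B and C it had 5.64, 2.79 and 1.73 CPM in unfed high-salt larvae and 3.98, 1.27 and 2.44 CPM in fed high-salt larvae, against 92.8, 143 and 154 CPM in unfed low-salt larvae and 207, 239 and 81.3 CPM in fed low-salt larvae. All high-salt libraries lay below all low-salt libraries. The log2 fold change was -6.08 ± 0.57 (SE; adjusted p = 3.22e-06) with food and -5.32 ± 0.54 (SE; adjusted p = 8.64e-06) without food. Next came wrt-2. Unfed high-salt larvae had 0.691, 1.05 and 0.462 CPM of wrt-2 and fed high-salt larvae 2.31, 1.03 and 2.03 CPM, against 18.8, 23 and 44.3 CPM in unfed low-salt and 34.4, 42.8 and 20.4 CPM in fed low-salt larvae. The salt groups again did not overlap, with log2 fold changes of -4.20 ± 0.45 (SE; adjusted p = 7.08e-06) in fed and -5.24 ± 0.48 (SE; adjusted p = 4.41e-06) in unfed larvae.

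Neighbouring wrt-10 on chromosome II, on the other strand and with no coding gene between, is wrt-1. wrt-1 stood at 6.68, 4.12 and 4.16 CPM in unfed high-salt larvae, 10.8, 4.48 and 2.23 CPM in fed high-salt larvae, 53.8, 89.4 and 124 CPM in unfed low-salt larvae and 112, 127 and 50.3 CPM in fed low-salt larvae. It fell by a log2 fold change of -3.97 ± 0.51 (SE; adjusted p = 3.71e-05) with food and -4.18 ± 0.52 (SE; adjusted p = 5.47e-05) without food. The other warthog genes that fell in both comparisons were wrt-4, wrt-6, wrt-8 and wrt-9. In these 4 genes unfed high-salt A held the highest value of its group; wrt-4, for instance, stood at 6.56 CPM there, beside 0.46 and 0.35 CPM in unfed high-salt B and C. The exceptions were wrt-3 and wrt-5. For wrt-3 the libraries gave 18.5, 20.5 and 12.4 CPM in unfed high-salt and 11.99, 13.8 and 6.50 CPM in fed high-salt larvae, and 5.84, 10.4 and 7.64 CPM in unfed low-salt and 8.47, 9.56 and 7.93 CPM in fed low-salt larvae. The unfed groups did not overlap. It was higher in unfed high-salt than in unfed low-salt larvae (1.1 ± 0.32, adjusted p = 0.024) and did not pass with food (0.34 ± 0.32, adjusted p = 0.409). The wrt-3 call was lost without unfed high-salt B, unfed low-salt A or unfed low-salt C and in the fit on only the groups compared, and 1002 bases of its exons overlap a pseudogene on the same strand. For wrt-5 no comparison passed, with a log2 fold change of -0.09 ± 0.28 (SE) with food and 0.50 ± 0.28 without food.

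Quahog (qua-1) is needed for molting. Reads of qua-1 came to 19.1, 18.4 and 11.6 CPM in unfed high-salt larvae and 21.8, 17.3 and 13 CPM in fed high-salt larvae, compared with 154, 160.5 and 376 CPM in unfed low-salt and 397, 555 and 246 CPM in fed low-salt larvae. High-salt libraries all lay below low-salt ones, and the log2 fold change was -4.51 ± 0.44 (SE; adjusted p = 3.93e-06) with food and -3.82 ± 0.43 (SE; adjusted p = 1.74e-05) without food. The sole gene named hog is hog-1. The libraries gave hog-1 5.53, 1.92 and 3.81 CPM in unfed high-salt, 2.42, 0.909 and 3.65 CPM in fed high-salt, 6.54, 11.98 and 14.96 CPM in unfed low-salt and 16.4, 16.3 and 10.1 CPM in fed low-salt larvae. Within each feeding state its salt groups did not overlap, and it fell with food (-2.71 ± 0.50, adjusted p = 0.000624) and without food (-1.60 ± 0.47, adjusted p = 0.0259), the second call being lost without unfed high-salt B, unfed low-salt B or unfed low-salt C. Both proteins carry the Hog module, as do WRT-1, WRT-4, WRT-6, WRT-8, GRD-1, GRD-2 and GRD-11. Of these 9 genes, grouped with their values known, 8 fell in each salt comparison and grd-11 did not pass in either. Over all genes tested, 22.1% fell with food and 11.2% without food. With 1 library left out, calls were lost in some fits for grd-2 and wrt-8 with food, and for hog-1, wrt-6 and wrt-8 without food.

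**Figure D2:**
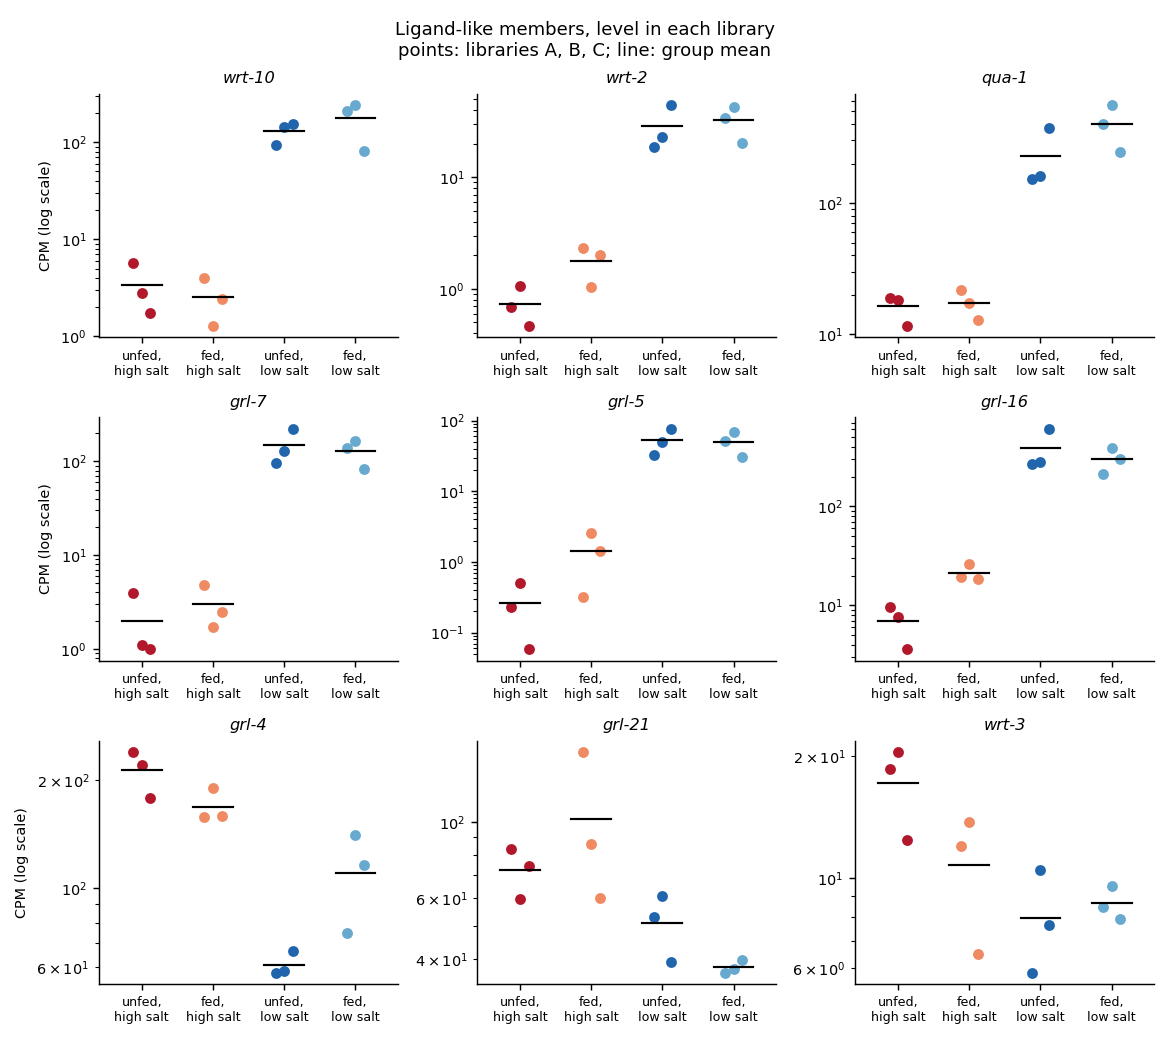
CPM on a log scale (y axis) of 9 ligand-like genes in each library, by group (x axis); points are libraries A, B and C and lines are group means. For wrt-10, wrt-2, qua-1, grl-7, grl-5 and grl-16 both high-salt groups lie below both low-salt groups, whereas grl-4 and grl-21 are highest in high-salt libraries.

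Of the 14 groundhog genes, 7 fell with food in high salt and none rose, and without food 5 fell and 1, grd-13, rose. Over all genes tested, 22.1% fell and 16.1% rose with food, and 11.2% fell and 6.72% rose without food. The clearest were grd-5 and grd-14. Levels of grd-5 were 6.79, 7.56 and 10.4 CPM in unfed high-salt and 4.89, 7.21 and 4.87 CPM in fed high-salt larvae, against 52.7, 81.4 and 106 CPM in unfed low-salt and 93.8, 103 and 86.5 CPM in fed low-salt larvae. Unfed high-salt larvae had 5.30, 6.69 and 5.20 CPM of grd-14 and fed high-salt larvae 5.43, 4.85 and 3.45 CPM, against 28.99, 50.9 and 60.6 CPM in unfed low-salt and 44.4, 64.6 and 45.1 CPM in fed low-salt larvae. In both genes the salt groups were separate, with log2 fold changes of -4.04 ± 0.32 (SE; adjusted p = 1.09e-06) for grd-5 and -3.45 ± 0.32 (SE; adjusted p = 2.67e-06) for grd-14 in fed larvae. Without food the values were -3.27 ± 0.30 (SE; adjusted p = 5.04e-06) for grd-5 and -3.02 ± 0.31 (SE; adjusted p = 8.15e-06) for grd-14. Also lower in both comparisons were grd-1, grd-2 and grd-6, from -4.16 (grd-1) to -3.05 (grd-2) with food. The pseudogene-annotated grd-17 and the low genes grd-9, grd-12, grd-15 and grd-16 passed in neither.

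Among the 21 ground-like genes, 4 rose and 5 fell with food, and 1 rose and 9 fell without food. With food this was 19% higher and 23.8% lower, near the 16.1% and 22.1% of all genes tested. Without food it was 4.76% higher and 42.9% lower, beside 6.72% and 11.2% of all genes tested. GRL-7 is known as an extracellular protein linked to PTR-18 in work on the quiescence of neural progenitors of starved hatchlings. grl-7 stood at 3.92, 1.1 and 0.982 CPM in unfed high-salt larvae, 4.79, 1.70 and 2.44 CPM in fed high-salt larvae, 96.8, 128 and 225 CPM in unfed low-salt larvae and 141, 166 and 83.2 CPM in fed low-salt larvae. High- and low-salt libraries did not overlap, and the log2 fold change was -5.41 ± 0.57 (SE; adjusted p = 7.08e-06) with food and -6.35 ± 0.60 (SE; adjusted p = 5.45e-06) without food. A still larger change without food was seen in grl-5. For grl-5 the libraries gave 0.230, 0.504 and 0.058 CPM in unfed high-salt and 0.323, 2.54 and 1.42 CPM in fed high-salt larvae, and 32.5, 49.2 and 77.1 CPM in unfed low-salt and 51.98, 69.2 and 30.2 CPM in fed low-salt larvae. No high-salt library reached a low-salt one. Its level in unfed high-salt larvae rested on 2, 11 and 1 reads, so that the log2 fold change of -7.51 ± 0.74 (SE; adjusted p = 1.06e-05) depends on very few counts. With food the change was -5.15 ± 0.63 (SE; adjusted p = 3.41e-05).

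Per kilobase of exon, grl-16 was the highest ground-like gene of both low-salt groups, at 230.1 CPM per kb in unfed low-salt and 178 CPM per kb in fed low-salt larvae. Reads of grl-16 came to 9.56, 7.70 and 3.58 CPM in unfed high-salt larvae and 19.4, 26.2 and 18.5 CPM in fed high-salt larvae, compared with 269, 279.7 and 611 CPM in unfed low-salt and 212, 385 and 302 CPM in fed low-salt larvae. It fell with food (-3.81 ± 0.43, adjusted p = 9.94e-06) and without food (-5.81 ± 0.47, adjusted p = 2.58e-06), with no overlap between salt groups. A similar profile was shown by grl-15. The libraries gave grl-15 2.88, 1.33 and 1.04 CPM in unfed high-salt, 6.67, 2.48 and 5.28 CPM in fed high-salt, 35.8, 59.2 and 95.2 CPM in unfed low-salt and 83.9, 87.4 and 38.2 CPM in fed low-salt larvae. Its log2 fold change was -3.87 ± 0.49 (SE; adjusted p = 3.04e-05) with food and -5.27 ± 0.54 (SE; adjusted p = 8.46e-06) without food. Lower in both was also grl-10, and lower without food only by call were grl-1, grl-2, grl-22 and grl-24; for these 4 genes the difference between the salt effects was itself not called (adjusted p of 0.265, 0.82, 0.482 and 0.45 for the interaction). The calls of grl-1, grl-2 and grl-22 were lost in some fits with 1 library left out. Among these genes, grl-2 is known from the excretory duct and pore.

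A few ground-like genes were highest in high salt. Per kilobase of exon grl-4 led the whole family, with a mean of 168 CPM per kb over the 12 libraries. Levels of grl-4 were 239.6, 219.8 and 178 CPM in unfed high-salt and 158, 189 and 158 CPM in fed high-salt larvae, against 57.98, 58.6 and 66.5 CPM in unfed low-salt and 75.02, 139.9 and 116 CPM in fed low-salt larvae. It rose in unfed high-salt against unfed low-salt larvae (1.80 ± 0.27, adjusted p = 0.000216), where the groups did not overlap, and did not pass with food (0.61 ± 0.26, adjusted p = 0.0759). For grl-21 the call came with food instead. The difference between the salt effects was not itself called by the edgeR test in grl-4 or grl-21, though DESeq2 called it in grl-4. Unfed high-salt larvae had 83.5, 59.8 and 74.2 CPM of grl-21 and fed high-salt larvae 159.6, 86.2 and 60.1 CPM, against 52.8, 60.8 and 39.3 CPM in unfed low-salt and 36.5, 37.4 and 39.7 CPM in fed low-salt larvae. It rose with food (1.43 ± 0.32, adjusted p = 0.00232) and did not pass without food (0.51 ± 0.31, adjusted p = 0.297). Each high-salt library was above the fed low-salt libraries, whereas unfed low-salt B overlapped unfed high-salt B. The other ground-like genes that rose with food were low ones, grl-8, grl-9 and grl-13, at group means of at most 4.55 CPM. The grl-13 call was lost without fed low-salt A or fed low-salt B. Of these, grl-8 and grl-9 are next to each other on chromosome V, on the same strand. Their log2 fold changes with food were 1.40 ± 0.44 (SE; adjusted p = 0.0196) for grl-8, lost without fed high-salt C or any of the fed low-salt libraries, and 2.67 ± 0.58 (SE; adjusted p = 0.00208) for grl-9. Both overlap exons of ZC487.8 on the other strand, by 35 bases (grl-8) and 91 bases (grl-9).

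Among the receptor-like genes, ptc-1 was the highest per kilobase of exon, at 116 CPM per kb over the 12 libraries. PTC-1, the closest Patched homologue, is known for its role in germline cytokinesis. ptc-1 stood at 336, 1172 and 397 CPM in unfed high-salt larvae, 907, 1259 and 1026 CPM in fed high-salt larvae, 390, 267 and 335 CPM in unfed low-salt larvae and 279, 321 and 390.2 CPM in fed low-salt larvae. Fed high-salt libraries all exceeded fed low-salt libraries (1.69 ± 0.40, adjusted p = 0.00339). The unfed high-salt libraries disagreed, with B at the level of the fed high-salt ones and A and C near the low-salt ones, and the comparison without food did not pass (0.94 ± 0.39, adjusted p = 0.109). The annotated pseudogene ptc-2 followed ptc-1 in each library, with 10.9 to 13.04 ptc-1 reads per ptc-2 read. Its log2 fold change with food was 1.73 ± 0.38 (SE; adjusted p = 0.00216). How the authors' counting split reads between similar sequences is not stated, so the ptc-2 values are uncertain.

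PTC-3, which is known to act in osmoregulation and larval growth, did not pass in any comparison. For ptc-3 the libraries gave 137, 164 and 159 CPM in unfed high-salt and 168, 179.9 and 201 CPM in fed high-salt larvae, and 178, 139.8 and 286 CPM in unfed low-salt and 244, 387 and 254 CPM in fed low-salt larvae. The fed high-salt libraries lay below all fed low-salt ones, at a log2 fold change of -0.69 ± 0.29 (SE; adjusted p = 0.0722), and without food the value was -0.39 ± 0.29 (SE; adjusted p = 0.392). With ptc-1 making up 46.1 to 51.1% of the summed receptor-like CPM in fed high-salt libraries, against 15.1 to 21.9% in fed low-salt libraries, the class total followed it. Summed receptor-like CPM averaged 2209 ± 266 in fed high-salt and 1850 ± 253 in fed low-salt larvae (SD, n = 3 each). Without ptc-1 and ptc-2 it averaged 1055 ± 86.9 CPM in fed high-salt and 1493 ± 252 CPM in fed low-salt larvae. The ligand-like sum was lower in high salt, at 697 ± 88.7 CPM in unfed high-salt and 587 ± 89.3 CPM in fed high-salt larvae, against 1801 ± 677 CPM in unfed low-salt and 2129 ± 429 CPM in fed low-salt larvae.

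**Figure D3:**
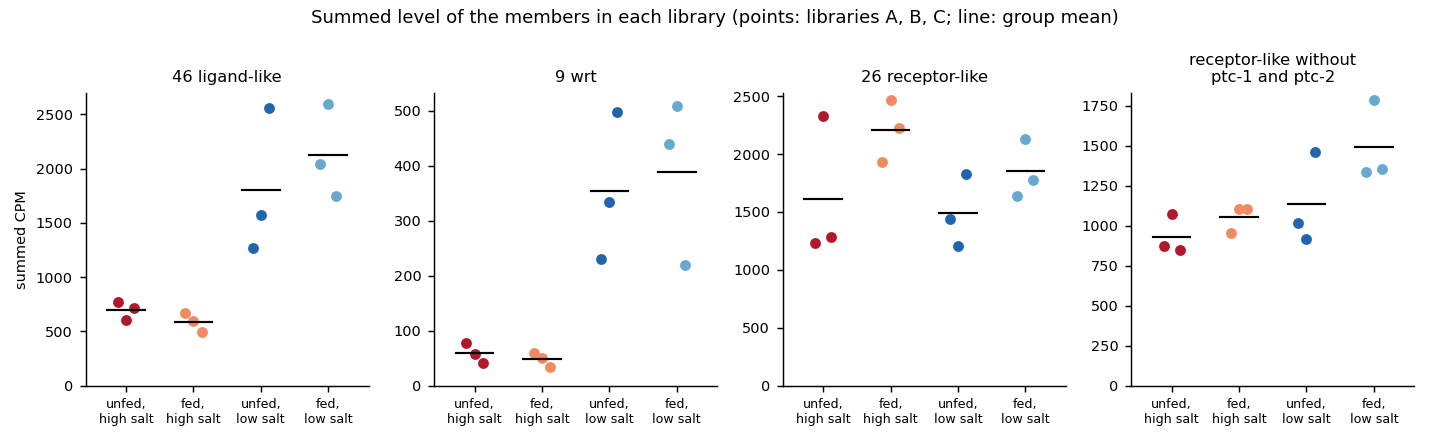
Summed CPM (y axis) of the 46 ligand-like genes, the 9 wrt genes, the 26 receptor-like genes, and the receptor-like genes without ptc-1 and ptc-2, in each library by group (x axis); points are libraries A, B and C and lines are group means. Ligand-like sums in high-salt libraries run from 492 to 775, below all low-salt libraries (1271 to 2594), while receptor-like sums overlap between the salts.

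Of the 23 patched-related genes, 9 fell and 3 rose with food, and 8 fell and 3 rose without food. With food this was 39.1% lower and 13% higher, beside 22.1% and 16.1% of all genes tested. Without food it was 34.8% lower and 13% higher, beside 11.2% and 6.72% of all genes tested. PTR-18, known for keeping neural progenitors quiescent in starved hatchlings, showed one of the clearest changes. Reads of ptr-18 came to 8.87, 6.64 and 10.3 CPM in unfed high-salt larvae and 12.3, 7.27 and 18.3 CPM in fed high-salt larvae, compared with 72.4, 77.3 and 148 CPM in unfed low-salt and 111, 169.5 and 87.6 CPM in fed low-salt larvae. All high-salt libraries were below all low-salt libraries, with -3.31 ± 0.40 (SE; adjusted p = 1.78e-05) with food and -3.53 ± 0.40 (SE; adjusted p = 1.99e-05) without food. PTR-4 is known from the assembly of the precuticle, the transient matrix laid down before each cuticle. The libraries gave ptr-4 23.6, 12.1 and 3.06 CPM in unfed high-salt, 20, 20.7 and 17.3 CPM in fed high-salt, 63.9, 86.8 and 140.4 CPM in unfed low-salt and 182, 222 and 125 CPM in fed low-salt larvae. The salt groups were separate, at -3.18 ± 0.53 (SE; adjusted p = 0.000327) with food and -2.93 ± 0.53 (SE; adjusted p = 0.00123) without food, though the unfed high-salt libraries spread from 3.06 to 23.6 CPM.

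A promoter used to label glia belongs to ptr-10. Levels of ptr-10 were 17.5, 1.28 and 1.16 CPM in unfed high-salt and 2.31, 2.97 and 4.47 CPM in fed high-salt larvae, against 17.4, 18.98 and 32.4 CPM in unfed low-salt and 34.01, 40.8 and 23.9 CPM in fed low-salt larvae. It fell with food (-3.40 ± 0.84, adjusted p = 0.00645) but not by call without food (-1.87 ± 0.78, adjusted p = 0.12), where unfed high-salt A lay above unfed low-salt A. The patched-related genes ptr-16 and ptr-13 fell in both salt comparisons. Unfed high-salt larvae had 11.9, 3.07 and 2.77 CPM of ptr-16 and fed high-salt larvae 3.28, 3.27 and 11.2 CPM, against 26.5, 27.1 and 64.6 CPM in unfed low-salt and 34.2, 53.97 and 33.3 CPM in fed low-salt larvae. ptr-13 stood at 10.7, 10.2 and 4.91 CPM in unfed high-salt larvae, 8.71, 11.7 and 8.12 CPM in fed high-salt larvae, 32.2, 24.7 and 34.8 CPM in unfed low-salt larvae and 58.1, 56.9 and 91.1 CPM in fed low-salt larvae. The salt groups did not overlap in either gene, with log2 fold changes with food of -2.89 ± 0.64 (SE; adjusted p = 0.00317) for ptr-16 and -2.84 ± 0.32 (SE; adjusted p = 1.15e-05) for ptr-13.

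Lower in both salt comparisons were also ptr-1, ptr-15, ptr-17 and ptr-2. For ptr-1 the libraries gave 15.2, 5.87 and 4.74 CPM in unfed high-salt and 14.1, 10.8 and 14.01 CPM in fed high-salt larvae, and 33.1, 41.5 and 55.3 CPM in unfed low-salt and 47.5, 63.6 and 44.9 CPM in fed low-salt larvae. Reads of ptr-15 came to 8.52, 1.65 and 2.08 CPM in unfed high-salt larvae and 3.76, 2.30 and 5.89 CPM in fed high-salt larvae, compared with 12.1, 14.7 and 26.2 CPM in unfed low-salt and 18.8, 19.2 and 9.64 CPM in fed low-salt larvae. In ptr-1 and ptr-15 the high-salt libraries lay below the low-salt libraries, and without food the log2 fold changes were -2.37 ± 0.37 (SE; adjusted p = 0.000353) for ptr-1 and -2.19 ± 0.56 (SE; adjusted p = 0.0123) for ptr-15. The ptr-15 call without food was lost when unfed low-salt C was left out. PTR-2 is known to be needed for the permeability barrier of the embryo. The libraries gave ptr-2 19, 16.6 and 10.7 CPM in unfed high-salt, 21.4, 22.9 and 30.7 CPM in fed high-salt, 27.5, 23.7 and 59.1 CPM in unfed low-salt and 43.2, 57.6 and 37.2 CPM in fed low-salt larvae. Its call without food (-1.25 ± 0.34, adjusted p = 0.0167) was lost without unfed high-salt C or unfed low-salt C, and that with food (-0.89 ± 0.34, adjusted p = 0.0483) was lost under 8 of 21 alternative settings.

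**Figure D4:**
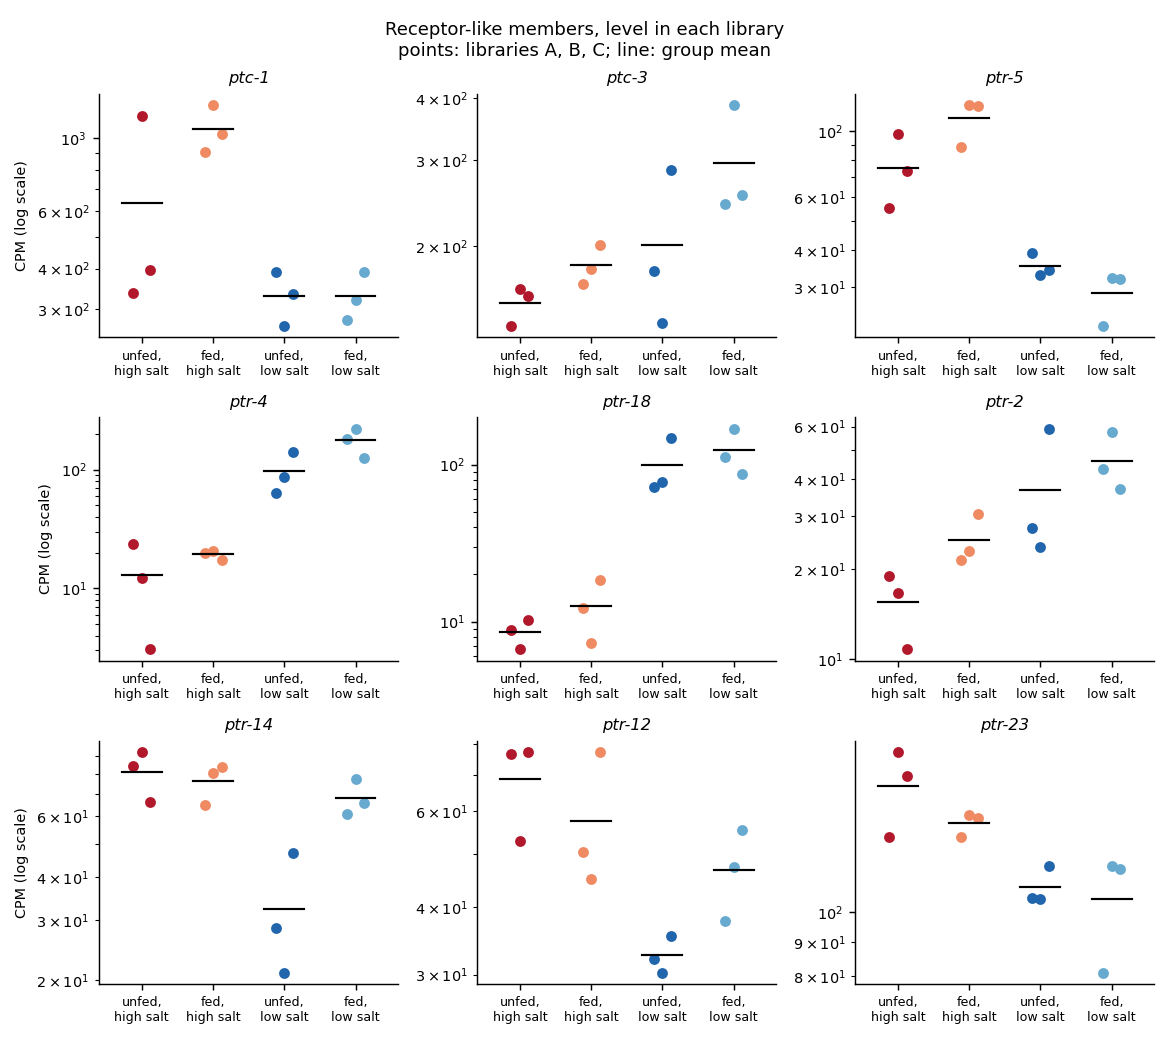
CPM on a log scale (y axis) of 9 receptor-like genes in each library, by group (x axis); points are libraries A, B and C and lines are group means. In ptr-4 and ptr-18 the high-salt libraries lie below the low-salt libraries, in ptr-5 they lie above them, and in ptc-1 unfed high-salt B stands at 1172 CPM beside 336 and 397 CPM in A and C.

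The receptor-like gene that rose with high salt under both feeding states was ptr-5. Levels of ptr-5 were 55.5, 97.6 and 73.3 CPM in unfed high-salt and 88.4, 122 and 121 CPM in fed high-salt larvae, against 39.02, 32.97 and 34.3 CPM in unfed low-salt and 22.2, 32.2 and 31.9 CPM in fed low-salt larvae. No high-salt library overlapped a low-salt one, and the log2 fold change was 1.94 ± 0.27 (SE; adjusted p = 5.94e-05) with food and 1.09 ± 0.26 (SE; adjusted p = 0.00828) without food, the second lost when unfed high-salt B was left out. Called higher in only 1 of these comparisons were ptc-1, ptc-2, ptr-3 and ptr-6 with food, and ptr-12 and ptr-14 without food. The ptr-3 rise with food (0.83, adjusted p = 0.0123) was lost under 5 of 21 alternative settings. Library values of ptr-3 and ptr-14 follow with the interaction. Unfed high-salt larvae had 46.98, 71.9 and 29.4 CPM of ptr-6 and fed high-salt larvae 64.2, 72.96 and 56.2 CPM, against 23.5, 28.6 and 36.5 CPM in unfed low-salt and 30.04, 36.8 and 24.9 CPM in fed low-salt larvae. ptr-12 stood at 76.7, 52.9 and 77.3 CPM in unfed high-salt larvae, 50.6, 44.96 and 77.2 CPM in fed high-salt larvae, 32.03, 30.3 and 35.4 CPM in unfed low-salt larvae and 37.7, 47.3 and 55.3 CPM in fed low-salt larvae. With food ptr-6 rose (1.08 ± 0.30, adjusted p = 0.0107), a call lost without fed high-salt B, fed low-salt A or fed low-salt C and with no count filter. Without food ptr-12 rose (1.08 ± 0.26, adjusted p = 0.00902).

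PTR-23 is known from genetics of the osmotic response, where it is required for the constitutive response of osm-8 mutants. For ptr-23 the libraries gave 129.5, 174 and 160 CPM in unfed high-salt and 129.5, 140 and 138 CPM in fed high-salt larvae, and 105, 105 and 117 CPM in unfed low-salt and 80.99, 117 and 116 CPM in fed low-salt larvae. Every unfed high-salt library exceeded every unfed low-salt library, and every fed high-salt library exceeded the fed low-salt ones. Groups that did not overlap were found for 29.1% of all genes tested without food and for 62.5% with food. The log2 fold changes of ptr-23 were 0.51 ± 0.24 (SE; adjusted p = 0.162) without food and 0.38 ± 0.24 (SE; adjusted p = 0.216) with food, and neither passed. Of 85 family names in the current gene table, 15 are not in the result sheets and stand outside the 72. Apart from ptr-25 these are ligand-like names, wrt-7 among them, with at most 108 reads in any library (grd-7, fed low-salt C). The counts by class and family refer to the 72 genes only. Best covered of the 15 was the patched-related gene ptr-25, with up to 2079 reads in a library. It was lower in fed high-salt than in fed low-salt larvae, with a log2 fold change of -0.88 ± 0.30 (SE; adjusted p = 0.0307).

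Fewer members passed between unfed and fed larvae. In unfed low-salt against fed low-salt larvae 5 of the 72 genes passed, 1 higher and 4 lower, beside 7.68% of all genes tested (3.57% higher and 4.11% lower). The median log2 fold change was 0.27 over the ligand-like genes, -0.16 over the receptor-like genes and 0.15 over all genes. The genes that fell without food were grd-3 (-1.85 ± 0.27, adjusted p = 0.00206), grd-13 (-1.19 ± 0.29, adjusted p = 0.0222), ptr-13 (-1.17 ± 0.30, adjusted p = 0.0289) and ptr-14 (-1.08 ± 0.29, adjusted p = 0.0334), and ptr-3 rose (1.48 ± 0.24, adjusted p = 0.00329). The calls of grd-3 and ptr-3 were kept in all 12 fits that each left out 1 library, and the calls of the other 3 were lost in some of them. Without unfed high-salt A, which is in neither group, 14 members passed, 7 of them higher, beside 16.3% of all genes tested in that fit. Without unfed low-salt C 10 passed (11% of all genes), and without unfed low-salt A or B, or any of the fed low-salt libraries, 2 passed (1.09 to 1.89% of all genes). By DESeq2 11 members passed, 4 of them higher, beside 14.8% of all genes. The authors' deposited table called 3 members higher and 7 lower here, among them the 5 above with the same sign.

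In unfed high-salt against fed high-salt larvae no member passed, beside 0.0777% of all genes tested. At an unadjusted p under 0.05 there were 10 members, 9 ligand-like and ptc-2, beside 7.92% of all genes tested. DESeq2 called grl-16 alone, beside 0.521% of all genes, and the edgeR test with no count filter called grl-5, grl-15 and grl-16, beside 0.619%, all lower without food. For grl-16 the log2 fold change was -1.64 ± 0.40 (SE; adjusted p = 0.255), and each unfed high-salt library lay below each fed high-salt one. The libraries of these groups did not overlap for 10.2% of all genes tested.

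Fed high-salt larvae were also set against unfed low-salt larvae, the osmotic beside the starvation condition. Here 38 of the 72 members passed, 9 higher and 29 lower, beside 21.5% of all genes tested (7.04% higher and 14.5% lower). Of the 38 calls, 29 were made in all 12 fits that each left out 1 library. Among the higher calls, grl-9 was lost in 11 of these fits, grl-21 and ptr-12 in 8 and ptr-6 in 3. Lower calls lost in some fits were grl-2, ptr-10, ptr-15, ptr-19 and wrt-9. Without unfed low-salt A or unfed low-salt B, 5 were higher, beside 4.74% and 3.64% of all genes tested in those fits. This comparison shares its libraries with those above. The members with the smallest p were grd-5 (-3.81 ± 0.32, adjusted p = 2.21e-06), grd-14 (-3.32 ± 0.32, adjusted p = 5.94e-06), wrt-10 (-5.64 ± 0.56, adjusted p = 9.29e-06), grl-7 (-5.61 ± 0.57, adjusted p = 1.24e-05), grl-16 (-4.17 ± 0.43, adjusted p = 1.24e-05) and wrt-2 (-4.02 ± 0.45, adjusted p = 2.12e-05). Among those that rose were ptc-1 (1.69 ± 0.40, adjusted p = 0.00593), ptr-5 (1.64 ± 0.27, adjusted p = 0.000438), grl-4 (1.47 ± 0.27, adjusted p = 0.00101) and ptr-14 (1.25 ± 0.29, adjusted p = 0.00536).

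The interaction of salt and food was the salt effect without food minus the salt effect with food. It was called in 4 members, 3 higher and 1 lower, beside 2% of all genes tested (1.56% higher and 0.433% lower). Other members called in only 1 salt comparison, such as grl-4, grl-21, wrt-3, ptc-1, ptr-6, ptr-10 and ptr-12, were not among them. For these a difference in the salt effect between feeding states was not called. The 3 with a positive interaction, grd-13, grd-3 and grd-10, lie next to each other in this order on chromosome IV, on the same strand and with no coding gene between them. Reads of grd-13 came to 103.9, 81.01 and 166 CPM in unfed high-salt larvae and 76.7, 71.8 and 67.8 CPM in fed high-salt larvae, compared with 41.3, 48.8 and 66.8 CPM in unfed low-salt and 114, 107 and 136 CPM in fed low-salt larvae. The libraries gave grd-3 20.9, 25.5 and 22.98 CPM in unfed high-salt, 24.5, 32.9 and 16.9 CPM in fed high-salt, 22.1, 28.4 and 31.02 CPM in unfed low-salt and 93.7, 80.5 and 121 CPM in fed low-salt larvae. Levels of grd-10 were 116, 73.95 and 165 CPM in unfed high-salt and 80.8, 55.7 and 35.1 CPM in fed high-salt larvae, against 55.5, 82.5 and 74.95 CPM in unfed low-salt and 136, 131 and 178 CPM in fed low-salt larvae. In grd-3 the fed low-salt libraries stood alone, above all 9 others. In grd-13 the unfed high-salt libraries also exceeded all fed high-salt and unfed low-salt libraries, and in grd-10 so did 2 of the 3, with unfed high-salt B inside their range. The interaction was 1.89 ± 0.40 (SE; adjusted p = 0.0288) for grd-13, 1.75 ± 0.38 (SE; adjusted p = 0.0313) for grd-3 and 2.11 ± 0.48 (SE; adjusted p = 0.0356) for grd-10. Per kilobase of exon, grd-10 and grd-13 were the highest members after grl-4 over the 12 libraries, at 156 CPM per kb (grd-10) and 147.5 CPM per kb (grd-13).

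The receptor-like gene among them was ptr-3. Unfed high-salt larvae had 18.8, 23.96 and 15.8 CPM of ptr-3 and fed high-salt larvae 20.1, 15.6 and 20.9 CPM, against 33.1, 28.6 and 27.03 CPM in unfed low-salt and 9.08, 11.2 and 11.4 CPM in fed low-salt larvae. All unfed low-salt libraries exceeded all others, and all fed low-salt libraries were below all others; the interaction was -1.43 ± 0.33 (SE; adjusted p = 0.0393). A profile of the opposite sense, with unfed low-salt libraries below the other 3 groups, was seen in ptr-14. ptr-14 stood at 84.3, 92.7 and 66.1 CPM in unfed high-salt larvae, 64.8, 80.3 and 83.7 CPM in fed high-salt larvae, 28.4, 21.03 and 46.97 CPM in unfed low-salt larvae and 60.9, 77.04 and 65.5 CPM in fed low-salt larvae. It rose in unfed high-salt against unfed low-salt larvae (1.33 ± 0.29, adjusted p = 0.0039), and its interaction was not called (adjusted p = 0.136). Leaving out single libraries gave 0 to 7 interaction calls among the members, beside 0.316 to 5.26% of all genes. None was called without fed high-salt C, unfed low-salt A, unfed low-salt B or any of the fed low-salt libraries, 1 was called without unfed high-salt C, fed high-salt A or fed high-salt B, and 7 were called without unfed high-salt A.

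**Figure D5:**
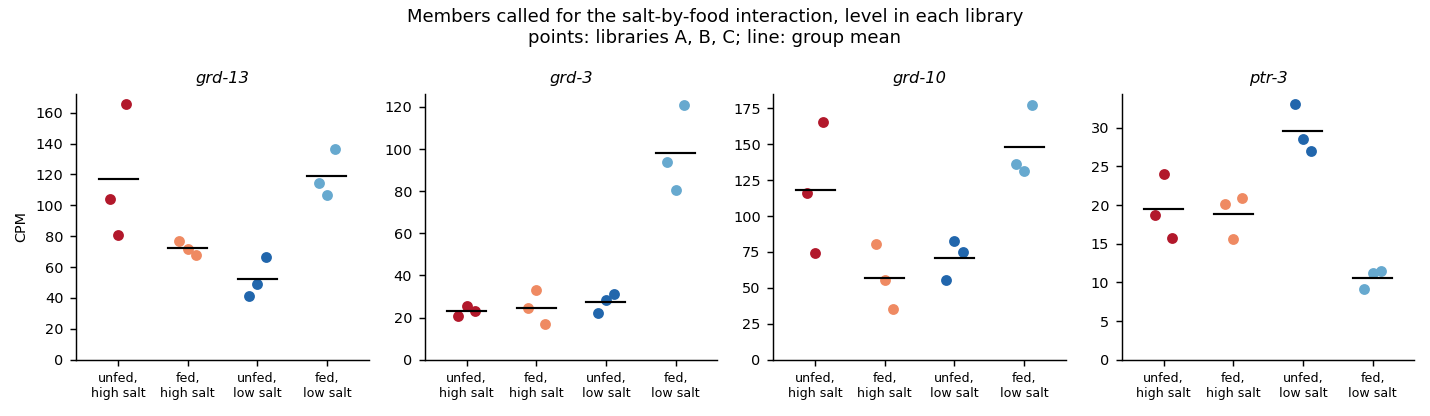
CPM (y axis, from 0) of grd-13, grd-3, grd-10 and ptr-3 in each library by group (x axis); points are libraries A, B and C and lines are group means. The fed low-salt libraries of grd-3 run from 80.5 to 121, above all 9 others, and those of ptr-3 from 9.08 to 11.4, below all others.

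Counting, for each gene, the group with the highest mean, 35 of the 46 ligand-like and 16 of the 26 receptor-like genes were highest in a low-salt group. Over all genes tested this share was 49.9%. Within groups, single libraries stood out for many members at once. Unfed low-salt C was the highest of its group for 51 of the 72 genes, beside 34.4% of all genes tested, and fed low-salt B was the highest of its group for 49, beside 28.7% of all genes. Unfed high-salt A was the highest for 36, beside 44.1%. Lowest of their groups were unfed high-salt C for 40 members, fed low-salt C for 39 and unfed low-salt A for 38. Over all genes tested these shares were 32.2%, 33.6% and 28.7%. Without unfed low-salt C, 28 members passed between unfed high-salt and unfed low-salt larvae, beside 11.1% of all genes tested in that fit. Without fed low-salt B, 33 passed between fed high-salt and fed low-salt larvae, beside 24.2%. With all libraries these shares of all genes were 17.9% and 38.3%. Leaving out unfed high-salt A and fed high-salt C together gave 38 calls with food and 43 without food, beside 41.8% and 25.3% of all genes.

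Other genes tied to Hedgehog signalling in animals were read beside the family, as a list of 17 homologues. With food 2 rose and 6 fell in high salt, and without food 1 rose and 4 fell. Over all genes tested, 16.1% rose and 22.1% fell with food, and 6.72% rose and 11.2% fell without food. The largest falls were in hhat-1, a homologue of the Hedgehog acyltransferase (-5.25 ± 0.99 with food, SE), and in tra-1, the GLI-type transcription factor of the worm (-3.13 ± 0.32 with food and -1.69 ± 0.30 without food). Mean tra-1 CPM was 13.7 ± 5.19 in unfed high-salt, 8.08 ± 1.36 in fed high-salt, 43.96 ± 12.5 in unfed low-salt and 70.1 ± 7.96 in fed low-salt larvae (SD, n = 3 each). Lower in both salt comparisons were also che-14, which encodes a Dispatched-related protein, and phg-1, the Gas1 homologue. The patched-related gene daf-6, which shapes glial channels, fell with food (-1.40 ± 0.45, SE). Rising with food were ncr-2, of the Niemann-Pick C1 type, and sbp-1, which encodes the SREBP homologue. Between unfed and fed low-salt larvae 1 of the 17 passed, ncr-2, beside 7.68% of all genes tested. It was higher in unfed larvae (1.60 ± 0.44).

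Known regulators of the molting cycle were read in the same way, 9 tested genes of a list of 10. In high salt 2 rose and 5 fell, both with food and without it. For this list and those below, the shares over all genes tested were 16.1% higher and 22.1% lower with food. Without food they were 6.72% higher and 11.2% lower. The period homologue lin-42 fell by 5.74 ± 0.81 on the log2 scale with food and by 5.20 ± 0.78 without food (SE). Also lower in both were bed-3, myrf-1 and nhr-23, while nhr-25 and elt-3, which stand in the epidermal list too, were higher. No gene of the molting list passed between unfed and fed larvae, beside 7.68% of all genes tested at low salt and 0.0777% at high salt. Of 12 epidermal identity genes 2 rose and none fell with food, and 2 rose and 1 fell without food. Their summed CPM ran from 1181 to 2703 in unfed high-salt, from 2681 to 4166 in fed high-salt, from 1287 to 2647 in unfed low-salt and from 1787 to 2916 in fed low-salt libraries, and none of the 12 was at 0. For 11 tested glial markers 3 rose and 3 fell with food, and 1 rose and 1 fell without food. Intestinal markers moved with salt as well, with 1 of 10 higher and 7 lower in fed high-salt larvae, and 2 higher and 7 lower in unfed high-salt larvae, each against its own low-salt group. In the same salt comparisons, with food and without it, 12 neuronal markers gave 2 higher and none lower with food, and 1 higher and 1 lower without food. Of 9 muscle markers 2 were higher and 1 lower with food, and 1 was higher without food. Of 9 embryonic markers 3 were lower with food and none passed without food, and none of 5 adult genes passed in either. The part of these shifts in the family's changes was not tested.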

How the data were processed

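Whole L1 larvae gave mRNA libraries by a non-directional preparation, which loses strand, per the labels' protocols. Per the submitters' processing notes, Bowtie (version 1.1.2) aligned the reads and HTSeq counted them; neither the counting settings nor the genome build is given in the sources used. The deposited count files hold raw read counts per gene, and the gene symbols came from the authors' deposited edgeR sheets, which also give log2 fold changes and p-values.

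From the counts, edgeR 4.0.16 (R 4.3.3) kept genes by its expression filter (count minimum 10, total minimum 15) and scaled libraries by TMM. CPM values give reads per 1000000 of the scaled library size, and levels between genes use CPM per kilobase of exon (annotation WBcel235). A robust quasi-likelihood model on all 12 libraries with 4 group terms gave each comparison, with p-values adjusted over the 18028 genes tested. The SE was taken from the fold change and its F statistic. Alternatives were RLE or upper-quartile scaling, DESeq2 1.42.0, no filter, a filter of 5 CPM in 3 libraries, leaving out rRNA genes, only the groups compared, the replicate letter as a term, and leaving out libraries. The test was tried on simulated data.

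Depth was 5613260 to 76542711 reads on genes per library. Reads carried no stated molecular identifiers, so depth speaks for counting error only. The labels call the replicates biological, with no word on shared plates or days. The members, lists and tests were chosen with earlier results of these data known. By rule, library values are given for up to 5 called members with the highest and 5 with the lowest fold change in each class and comparison, among those with a mean of at least 5 CPM in 1 group, for the called interactions, and for ptc-1, ptc-3, ptr-2, ptr-4, ptr-23, qua-1 and hog-1; wrt-1 was added as a neighbour after its values were seen. No sequences are printed.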

Additional observations from a re-analysis of the deposited data

Results flagged for a closer look

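In 4 members the salt effect differed between unfed and fed larvae by a test of the difference itself (edgeR, adjusted over 18028 genes). The difference, salt effect without food minus salt effect with food, was 2.11 in grd-10 on the log2 scale (adjusted p = 0.0356), 1.89 in grd-13 (adjusted p = 0.0288) and 1.75 in grd-3 (adjusted p = 0.0313). In ptr-3 it was -1.43 (adjusted p = 0.0393). All were lost in most of the 12 fits that left out 1 library: grd-13 and ptr-3 in 9, grd-10 in 8 and grd-3 in 7. The ptr-3 call was also lost with no count filter, without rRNA genes, and without unfed high-salt A and fed high-salt C together. Over all alternatives the adjusted p reached 0.12 (grd-10), 0.107 (grd-13), 0.111 (grd-3) and 0.151 (ptr-3), with the sign unchanged.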

How the results depend on the processing

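The total counts of called members between salt levels stayed within 1.5 times of the reported ones under every alternative run; the count higher was 5, against 9, for fed high-salt against fed low-salt larvae without fed low-salt A, and when unfed low-salt A or B was left out of fed high-salt against unfed low-salt. Leaving out 1 library gave 33 to 44 calls for fed high-salt against fed low-salt larvae, beside 24.2 to 47.3% of all genes tested. For unfed high-salt against unfed low-salt it gave 28 to 42, beside 11.1 to 22.9%. For fed high-salt against unfed low-salt it gave 30 to 43, beside 12.6 to 28.3%. With only the groups compared, the calls in these 3 comparisons, in this order, were 45, 25 and 41. The shares of all genes tested were then 57.9%, 10.8% and 25.5%. For unfed against fed low-salt larvae, 3 members passed with upper-quartile scaling (1 higher and 2 lower), 11 with DESeq2, 10 with no count filter, 14 with only the groups compared, 14 without unfed high-salt A and fed high-salt C, and 2 to 14 when 1 library was left out. In the same order, the shares of all genes tested were 9.14%, 14.8%, 4.98%, 23.3%, 17.7% and 1.09 to 16.3%. For unfed against fed high-salt larvae DESeq2 called 1 and the unfiltered fit 3, beside 0.521% and 0.619% of all genes. The interaction gave 0 to 7 calls when 1 library was left out and 3 to 6 otherwise. Beside these stood 0.316 to 5.26% and 1.77 to 6.94% of all genes. No called member changed sign under any alternative; for unfed against fed low-salt larvae the uncalled values of ptc-1 and ptr-23, near 0, reached -0.14 and -0.13. The cause of these differences was not tested; the fits that leave out a library rest on fewer libraries. The median over all genes tested was 0.55 with upper-quartile scaling, against 0.12 with TMM, for fed high-salt against fed low-salt larvae. With the replicate block, a term for the letter, 39 members passed for fed high-salt against fed low-salt larvae, 39 for unfed high-salt against unfed low-salt, 36 for fed high-salt against unfed low-salt, 5 for unfed against fed low-salt, 0 for unfed against fed high-salt and 4 for the interaction. With this term 40.8%, 18.9%, 22.7%, 9.28%, 0.166% and 3.24% of all genes tested passed, in the same order. The labels do not say that a letter marks a shared batch. Same-letter deviations correlated from -0.09 to 0.35, with 7 of 18 pairs over 0.1, and 8 of 12 libraries correlated best with their own letter. Of the 17 ligand-like genes under 5 CPM in every group, 6 were called in a salt comparison. Over all genes tested, whatever their level, 57.8% were called in neither salt comparison.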
